A study of Mus musculus with 6 samples.

Results

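Genes of cholesterol synthesis and sterol regulation were followed in the hypothalamus of adult female mice whose mothers had received an NMDA receptor antagonist. They number 29 by symbol, namely 16 enzymes of the pathway from acetoacetyl-CoA to cholesterol, 6 genes of the SREBP regulatory system and 7 genes of sterol transport, storage, efflux and turnover. Each gene was represented by the probeset with the highest mean over the 6 arrays among the probesets annotated to that gene alone. Of the 29 genes, 27 were measured, out of 16663 genes tested on the arrays, and all 27 passed the signal filter, a mean log2 signal of at least 6. Acat2, whose product makes acetoacetyl-CoA, and Soat1, whose product esterifies cholesterol, were not analysed here.

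The CGP group was born to C57Bl/6J dams given CGP 39551, a competitive NMDAR antagonist, at 5 mg/kg body weight by mouth from conception through to weaning, and the control group (CON) was born to dams without the drug. Hypothalamic RNA of 18 female offspring, 21 weeks old, was pooled in each group, and each group has 3 Affymetrix Mouse Gene 1.0 ST arrays. The animals were fasted overnight and anaesthetised with xylazine and ketamine before tissue collection, by the methods given for the male mice of the study. The methods for the male mice put 1 pool of all animals of a group on its arrays in triplicate. If the female arrays were made likewise, the 3 arrays of a group are technical replicates, and the p-values describe array-to-array spread and not the spread between mice. Although 1 label text speaks of adrenal glands, the hypothalamic peptide genes Hcrt (12.54 in CGP and 12.51 in CON), Pmch (11.93 in CGP and 11.95 in CON) and Oxt (12.22 in CGP and 12.16 in CON) gave clear log2 signals. They had the highest signals of 11 hypothalamus markers tested, and Crh was low, at 7.20 in both groups. Over the 11 markers, CGP minus CON was above 0 for 3 and below 0 for 8, with a median of -0.03. Whether hypothalamic content was even between the groups was not tested.

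Cholesterol cannot cross the blood-brain barrier in lipoproteins, and the brain makes its own, in adults largely in astrocytes and in oligodendrocytes for myelin. Synthesis runs through mevalonate and the isoprenoids to squalene, and from squalene through lanosterol to cholesterol. When membrane sterol is low, the protein SCAP carries the transcription factors SREBP1 and SREBP2 out of the endoplasmic reticulum, their amino-terminal part is cut free, and it switches on most genes of the pathway. INSIG proteins hold SCAP back when sterol is high. Neurons dispose of surplus cholesterol by turning it into 24-hydroxycholesterol, and ABC transporters pass it to apolipoproteins.

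No sterol gene passed the test used, an adjusted p under 0.05 in limma. The count was 0 of 27 in either direction, beside 0.144% of all genes tested that were higher in CGP by this rule and 0.138% that were lower, or 0.282% in all, and 0.054% that also passed a 1.4-fold threshold. The lowest adjusted p among the 27 was 0.308, that of Hsd17b7. At an unadjusted p under 0.05, 4 sterol genes were higher in CGP (Hsd17b7, Dhcr7, Cyp46a1 and Pmvk) and none was lower, which is 14.8% of the 27. Over all genes tested the shares were 5.26% higher, 5.58% lower and 10.8% in either direction. The differences ran from -0.08 (Stard4) to 0.14 (Mvd) on the log2 scale, where 1 is a 2-fold difference. Their median was 0.01, beside -0.00204 over all genes tested, and 15 of the 27 (55.6%) lay above 0, beside 48.6% of all genes tested. For all 27 the 95% interval of the difference lay within 1.4-fold either way, the fold threshold of the study, as it did for 99.7% of all genes tested. The widest reach of an interval was that of Mvd, to 0.29. These intervals were computed gene by gene and hold for the spread between arrays only.

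**Figure D1:**
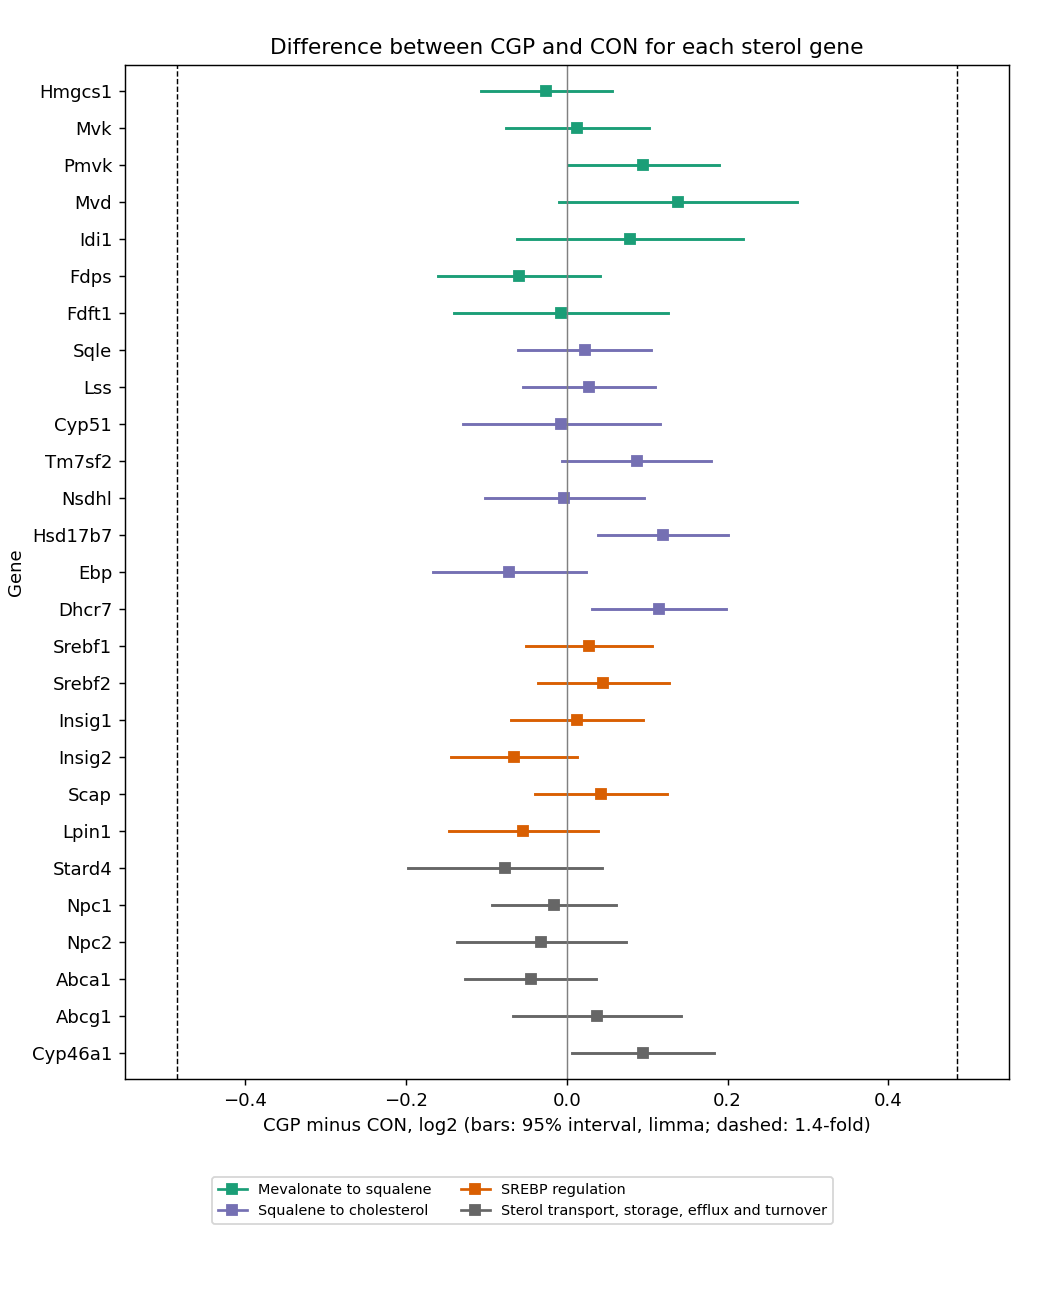
Difference between CGP and CON for each of the 27 sterol genes. The horizontal axis is CGP minus CON on the log2 scale, squares are the differences, bars the 95% intervals from limma (n = 3 arrays each), colours the roles of the genes, and dashed lines mark 1.4-fold either way. All 27 intervals lie inside the dashed lines, and those of Pmvk, Hsd17b7, Dhcr7 and Cyp46a1 lie just above 0.

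The correlation of arrays was 0.996 or more for every pair, and CGP replicate 1 stood apart on the second principal component, at -9.67 against -0.01 to 4.78 for the other 5 arrays. Over all genes 24 were higher and 23 lower in CGP at the adjusted p, and with each array centred on its median 31 were higher and 18 lower. Without CGP replicate 1 these counts were 2 and 7, and the lowest adjusted p of a sterol gene was 0.295 (limma). Leaving out any other single array gave similar counts, 2 to 4 higher and 3 to 8 lower, so the fall was not particular to CGP replicate 1. At the adjusted p, 2 of 9 choroid plexus markers (Ttr and Slc4a5) were higher in CGP and none lower, and 6 of 12 meningeal and fibroblast markers were lower and none higher. The summed linear signal of the choroid plexus list was 8674 to 8891 in CGP and 5502 to 5802 in CON, and that of the meningeal list was 6335 to 6618 in CGP and 7747 to 8015 in CON. Most of the choroid plexus sum is Ttr, the transthyretin gene, at 12.68 in CGP and 11.83 in CON on the log2 scale, and the median difference of that list was 0.21. The part of such tissue in the sterol gene values was not tested.

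The early steps, which carry carbon from acetyl-CoA units to squalene, were covered by 7 genes, of which 4 lay above 0 and 3 below. Hmgcs1, the cytosolic synthase that makes HMG-CoA and a classic SREBP target, had signals of 10.26, 10.22 and 10.21 on the CGP arrays, against 10.28, 10.25 and 10.24 on the CON arrays. The groups overlapped, and the difference was -0.03, with a 95% interval of -0.11 to 0.06 (adjusted p = 0.829 from limma). Mvk, which phosphorylates mevalonate, averaged 8.89 ± 0.03 in CGP and 8.87 ± 0.04 in CON, a difference of 0.01 (SD, n = 3 arrays each). The next kinase, Pmvk, had signals of 8.42, 8.40 and 8.31 in CGP, against 8.28 on each of the 3 CON arrays. The CON arrays of Pmvk had an SD of 0.0029, and the CGP arrays were all higher. Its difference was 0.10 (standard error 0.04, 95% interval 0.0014 to 0.19, unadjusted p = 0.0474 and adjusted p = 0.447 from limma).

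Mvd, the decarboxylase that yields isopentenyl diphosphate, had the largest difference of the 27 genes. Its signals were 8.50, 8.45 and 8.54 in CGP, against 8.42, 8.21 and 8.45 in CON. The groups did not overlap, but CGP replicate 2 and CON replicate 3 nearly met, and CON replicate 2 lay well below the other arrays. The difference was 0.14, with a standard error of 0.06 (adjusted p = 0.484 from limma), and 0.06 without CON replicate 2. Idi1, which isomerises isopentenyl diphosphate, had signals of 9.50, 9.37 and 9.54 in CGP, against 9.36, 9.49 and 9.33 in CON, and the arrays of the groups interleaved. On a further Idi1 probeset CGP replicate 2 was again the lowest CGP array and CON replicate 2 the highest CON array, and the difference was 0.08 for both probesets (adjusted p = 0.667 and 0.615 from limma).

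The last enzymes of this stretch leaned the other way or lay level. Fdps, the farnesyl diphosphate synthase, averaged 9.85 ± 0.06 in CGP and 9.91 ± 0.04 in CON, a difference of -0.06 (SD, n = 3 arrays each, adjusted p = 0.645 from limma). Fdft1, the squalene synthase at the branch point to sterols, averaged 11.58 ± 0.07 in CGP and 11.58 ± 0.09 in CON. Its difference was -0.01, and 0.03 at a further probeset, so that its sign depended on the probeset.

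The later steps, from squalene to cholesterol, held 8 genes, 5 above 0 and 3 below, among them the pair of sterol genes with the smallest p-values. Hsd17b7, the 3-ketosteroid reductase of the demethylation steps, had signals of 8.91, 8.88 and 8.94 in CGP, against 8.81, 8.79 and 8.78 in CON. All CGP arrays were above all CON arrays, with a gap between the groups wider than the range within either. The difference was 0.12 (standard error 0.04, 95% interval 0.04 to 0.20), or 1.09-fold, with an unadjusted p of 0.00939 and an adjusted p of 0.308 from limma. Dhcr7, which carries out a last step to cholesterol, had signals of 9.55, 9.48 and 9.48 in CGP, against 9.38, 9.40 and 9.38 in CON. The groups again did not overlap. The difference was 0.11 (standard error 0.04, 95% interval 0.03 to 0.20), or 1.08-fold, with an unadjusted p of 0.0135 and an adjusted p of 0.343 from limma. Leaving out any 1 array kept the difference of Hsd17b7 between 0.11 and 0.13 and that of Dhcr7 between 0.09 and 0.13.

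Tm7sf2, a sterol reductase of the same stretch, was the third gene here whose arrays lay apart with CGP higher, at 8.91, 8.95 and 8.91 in CGP, against 8.87, 8.77 and 8.86 in CON (difference 0.09, adjusted p = 0.480 from limma). Ebp, the sterol isomerase between these reductions, lay the other way, at 8.992, 9.001 and 8.916 in CGP, against 9.086, 9.037 and 9.001 in CON. Its groups met at CGP replicate 2 and CON replicate 3, which were equal to 3 decimals, and the difference was -0.07 (standard error 0.04, adjusted p = 0.565 from limma). Neighbouring enzymes of one route thus differed in sign, and none passed the test.

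The remaining 4 genes of the later steps overlapped between the groups. Sqle, the epoxidase that controls flux into sterols, averaged 9.76 ± 0.01 in CGP and 9.74 ± 0.04 in CON, and Lss, the lanosterol synthase, 8.62 ± 0.03 in CGP and 8.60 ± 0.02 in CON (SD, n = 3 arrays each). Cyp51, the lanosterol demethylase, averaged 9.31 ± 0.03 in CGP and 9.32 ± 0.10 in CON, and Nsdhl, which acts after it, averaged 9.50 ± 0.03 in CGP and 9.50 ± 0.06 in CON (SD, n = 3 arrays each). Their differences lay between -0.01 and 0.03, and their adjusted p values between 0.814 and 0.987 (limma).

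**Figure D2:**
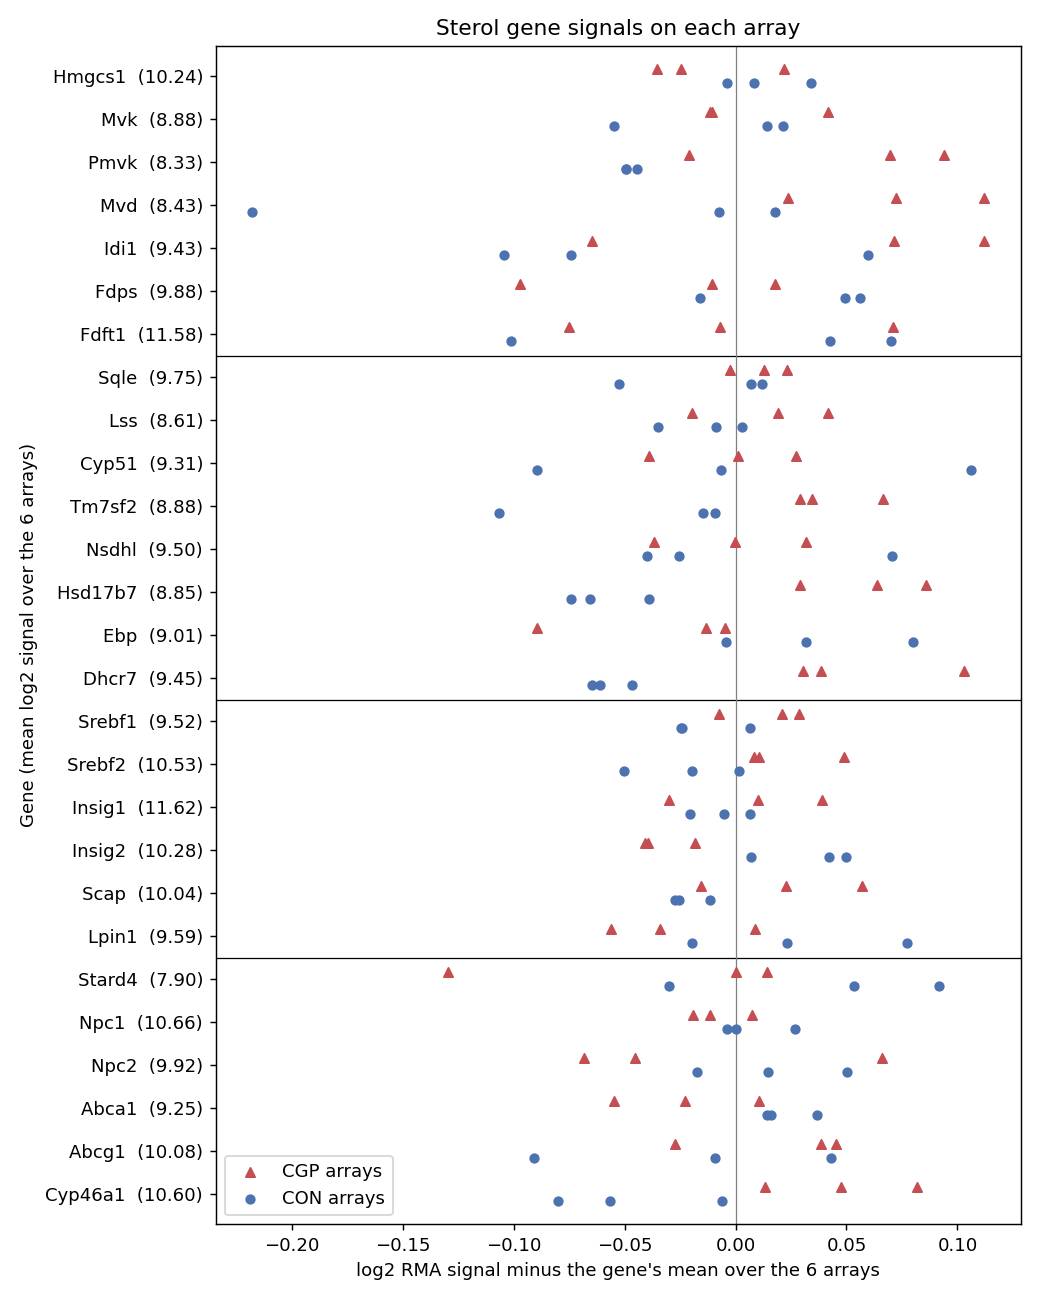
Signals of the 27 sterol genes on each array. The horizontal axis shows, for each gene, the log2 RMA signal minus its mean over the 6 arrays, triangles are the 3 CGP arrays, circles the 3 CON arrays, the number beside each gene is its mean log2 signal, and lines part the 4 roles. The triangles of Hsd17b7, Dhcr7 and Cyp46a1 all lie to the right of the circles, those of Insig2 all to the left, and the lowest circle of Mvd is CON replicate 2.

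The sequences upstream of these genes are shown because sterol control acts there. Windows of 300 bases around the annotated starts, 250 of them before the start (RefSeq, GRCm38.p6), were given for 21 of the 27 genes, and Abcg1, Fdft1, Fdps, Npc1, Sqle and Stard4 had none in the table. Both strands were searched. The NF-Y box, CCAAT, which often stands beside SREBP sites, was found in 18 of the 21 genes (85.7%), all but Abca1, Lpin1 and Scap, beside 41.1% of all 27025 genes with windows. The E-box CACGTG was found in 5 of the 21 (23.8%, in Abca1, Dhcr7, Hsd17b7, Insig1 and Scap), beside 8.09% of all genes, and the sterol regulatory element TCACNCCAC in 1, Hmgcs1, beside 1.44%. The LXR element was searched only as an exact direct repeat of AGGTCA with a spacer of 4 bases. That string was found in none of the 21, beside 4 of all 27025 genes (0.0148%). So rare a string cannot show whether these genes have LXR elements. A match is a string of letters and was not tested as a binding site. Sites that differ from a searched string by a letter were not counted, so a gene without a match may still have the element.

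The 250 bases before the start are printed for the pair of genes with the smallest p-values, for Hmgcs1 with its sterol regulatory element, and for the feedback gene Insig1. Each runs 5′ to 3′ in the direction of the gene, and capitals mark the motifs named above, CCAAT appearing as ATTGG where it lies on the other strand. Hsd17b7 lies on the minus strand (chr1:169969206-169969455), with CACGTG at -143 and CCAAT at -165, -73 and -12 from the start. Dhcr7 lies on the plus strand (chr7:143829964-143830213) and has 3 annotated starts, of which the one shown has CCAAT at -85 and -49, while the CACGTG belongs to another start. Hmgcs1 lies on the plus strand (chr13:119690101-119690350), with TCACNCCAC at -137 and CCAAT at -237, -176 and -45. Insig1 lies on the plus strand (chr5:28071162-28071411), with CACGTG at -101 and CCAAT at -216.
Hsd17b7: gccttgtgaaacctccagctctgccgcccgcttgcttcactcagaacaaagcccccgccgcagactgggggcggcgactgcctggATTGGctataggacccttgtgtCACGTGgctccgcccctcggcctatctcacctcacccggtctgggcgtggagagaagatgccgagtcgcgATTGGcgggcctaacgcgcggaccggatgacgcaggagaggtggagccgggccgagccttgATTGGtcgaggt
Dhcr7: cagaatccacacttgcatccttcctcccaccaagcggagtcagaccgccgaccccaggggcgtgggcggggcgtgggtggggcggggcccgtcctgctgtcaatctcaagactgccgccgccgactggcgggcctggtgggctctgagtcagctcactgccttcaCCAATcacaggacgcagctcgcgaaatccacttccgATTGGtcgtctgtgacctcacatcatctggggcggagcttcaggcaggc
Hmgcs1: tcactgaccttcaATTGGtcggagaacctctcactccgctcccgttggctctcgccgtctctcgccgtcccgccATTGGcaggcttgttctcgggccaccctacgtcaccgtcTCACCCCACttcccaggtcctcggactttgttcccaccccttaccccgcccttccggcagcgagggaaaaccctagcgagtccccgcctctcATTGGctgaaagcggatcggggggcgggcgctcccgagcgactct
Insig1: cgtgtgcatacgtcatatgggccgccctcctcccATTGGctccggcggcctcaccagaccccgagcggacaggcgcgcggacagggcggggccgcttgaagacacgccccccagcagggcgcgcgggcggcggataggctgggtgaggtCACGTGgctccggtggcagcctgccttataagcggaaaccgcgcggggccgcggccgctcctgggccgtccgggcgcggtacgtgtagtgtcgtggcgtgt

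The 6 regulators of the pathway, 4 above 0 and 2 below, had differences of -0.07 to 0.05. Srebf2, which encodes the main activator of cholesterol synthesis, had signals of 10.54, 10.58 and 10.54 in CGP, against 10.53, 10.48 and 10.51 in CON. The lowest CGP array lay just above the highest CON array, and the difference was 0.05 (standard error 0.04, 95% interval -0.04 to 0.13, adjusted p = 0.670 from limma). Srebf1, whose products favour fatty acid genes, averaged 9.54 ± 0.02 in CGP and 9.51 ± 0.02 in CON (SD, n = 3 arrays each). Scap, the escort and sterol sensor of SREBPs, had signals of 10.03, 10.10 and 10.06 in CGP, against 10.02, 10.01 and 10.03 in CON, with an overlap at CGP replicate 1 (difference 0.04, adjusted p = 0.695 from limma).

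The INSIG pair did not lie the same way. Insig1, which is itself an SREBP target and so closes the feedback loop, averaged 11.62 ± 0.03 in CGP and 11.61 ± 0.01 in CON (SD, n = 3 arrays each), and its 95% interval ran from -0.07 to 0.10. Insig2 had signals of 10.24, 10.24 and 10.26 in CGP, against 10.32, 10.33 and 10.28 in CON. All CGP arrays of Insig2 lay below all CON arrays, and the difference was -0.07 (standard error 0.03, 95% interval -0.14 to 0.01, unadjusted p = 0.0890 and adjusted p = 0.523 from limma). Lpin1, which encodes a phosphatidate phosphatase that also restrains nuclear SREBP, averaged 9.56 ± 0.03 in CGP and 9.61 ± 0.05 in CON (SD, n = 3 arrays each, adjusted p = 0.651 from limma).

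Genes that move, store or remove sterol were covered by 6 measured genes, 2 above 0 and 4 below. Cyp46a1, the neuronal enzyme that makes 24-hydroxycholesterol, had signals of 10.65, 10.69 and 10.62 in CGP, against 10.55, 10.52 and 10.60 in CON. The groups lay apart, with CGP replicate 3 and CON replicate 3 nearest to each other. Its difference was 0.10 (standard error 0.04, 95% interval 0.01 to 0.18, unadjusted p = 0.0386 and adjusted p = 0.426 from limma), or 1.07-fold. Abca1, which loads cholesterol on to apolipoproteins, had signals of 9.26, 9.20 and 9.23 in CGP, against 9.27, 9.29 and 9.27 in CON. All CGP arrays lay below the CON arrays, but CGP replicate 1 and CON replicate 1 nearly met, and the difference was -0.04 (standard error 0.04, adjusted p = 0.675 from limma). Its relative Abcg1, also an efflux transporter, averaged 10.10 ± 0.04 in CGP and 10.06 ± 0.07 in CON (SD, n = 3 arrays each), a difference of 0.04 that was 0.00198 without CON replicate 2.

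Among the genes of intracellular transport, Stard4, which carries cholesterol between membranes, had signals of 7.90, 7.92 and 7.77 in CGP, against 7.99, 7.96 and 7.87 in CON. The third array of each group was the lowest and the groups overlapped, and the difference was -0.08, standard error 0.05 (adjusted p = 0.628 from limma). Npc1 and Npc2, which export cholesterol from late endosomes and lysosomes and so serve the uptake route, differed by -0.02 and -0.03 (adjusted p = 0.902 and 0.835 from limma). Npc1 averaged 10.65 ± 0.01 in CGP and 10.67 ± 0.02 in CON, with the smallest spread between arrays of the 27 genes. Npc2 averaged 9.90 ± 0.07 in CGP and 9.93 ± 0.03 in CON (SD, n = 3 arrays each).

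Taken by whether the arrays of the groups overlapped, 7 of the 27 genes (25.9%) had all CGP arrays above all CON arrays, beside 7.69% of all genes tested. These were Pmvk, Mvd, Tm7sf2, Hsd17b7, Dhcr7, Srebf2 and Cyp46a1, of which 5 are synthesis enzymes. The reverse held for 3 of the 27 (11.1%), Ebp, Insig2 and Abca1, beside 9.63% of all genes. In either direction the count was 10 of 27, beside 17.3% of all genes tested. The share with CGP higher was above that of all genes and the share with CGP lower near it, and neither carries a test. With each array centred on its median the counts were 10 and 0, beside 10.3% and 8.06% of all genes, and the 3 lower genes then overlapped. Without CGP replicate 1 the counts were 9 and 6, beside 14.7% and 18.9% of all genes. Centring moved the median difference of the 27 genes to 0.03 and that of all genes tested to 0.01.

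**Figure D3:**
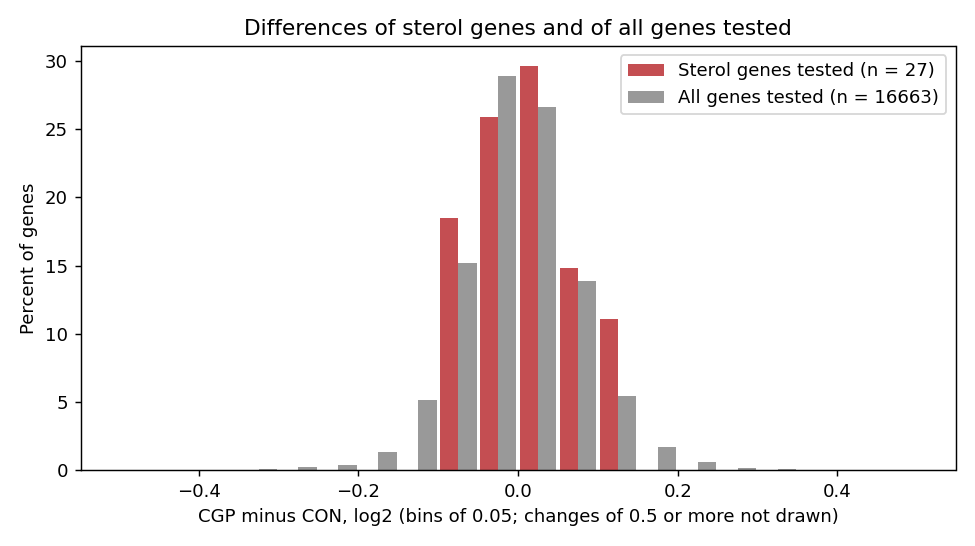
Differences of the 27 sterol genes (red, left bars) and of all 16663 genes tested (grey, right bars). The horizontal axis is CGP minus CON on the log2 scale in bins of 0.05 and the vertical axis the percent of genes in each bin. All sterol genes lie between -0.10 and 0.15, with medians of 0.01 for sterol genes and -0.00204 for all genes.

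From array to array the genes varied little. The median SD within groups was 0.04 for the 27 genes and 0.06 for all genes tested, and Mvd, Idi1 and Fdft1 had the widest, at 0.10, 0.09 and 0.08. For each array, the deviation from the 6-array mean was averaged over the members of a role. The later synthesis genes averaged 0.0319, 0.0153 and 0.00699 in CGP, against 0.00559, -0.0179 and -0.0418 in CON, so that CGP replicate 3 and CON replicate 1 were nearly level. The early synthesis genes averaged 0.0184, -0.00348 and 0.0350 in CGP, against -0.0174, -0.0286 and -0.00387 in CON, and CGP replicate 2 and CON replicate 3 were level. The transport genes averaged 0.0264, 0.00315 and -0.0385 in CGP, against 0.0238, -0.00646 and -0.00841 in CON, with no order between the groups. The regulators averaged 0.00530, 0.0104 and -0.0135 in CGP, against 0.0181, -0.00818 and -0.0122 in CON, also with no order. CGP replicate 1 held the highest of the 6 values for 8 of the 27 genes, and CON replicate 2 the lowest for 10.

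Glial markers were set beside these values, since astrocytes and oligodendrocytes make most of the sterol. Oligodendrocyte markers lay below 0 in 12 of 13 genes, with a median of -0.08, and a summed linear signal of 28616 to 29246 in CGP and 30387 to 31222 in CON. None of the 13 passed the adjusted p (lowest 0.129 in limma). Astrocyte markers lay below 0 in 10 of 12 genes, with a median of -0.06, and a summed signal of 33153 to 34635 in CGP and 34725 to 35196 in CON, and none passed either (lowest 0.271). For 9 oligodendrocyte and 4 astrocyte markers, the CGP arrays all lay below the CON arrays, beside 9.63% of all genes tested. They all lay above for 0 and 1, beside 7.69%. At an unadjusted p under 0.05 in limma, 6 oligodendrocyte and 4 astrocyte markers were lower, beside 5.58% of all genes. By that rule 0 were higher in either list, beside 5.26%. The summed signal of the 27 sterol genes was 26352 to 26479 in CGP and 26138 to 26238 in CON. Their mean log2 deviation overlapped between the groups, at -0.000409 on CGP replicate 3 and 0.00645 on CON replicate 1. The 75 other sterol and lipid genes described below had a summed signal of 113584 to 115786 in CGP and 116375 to 117050 in CON. In pooled tissue, fewer cells of a type and less RNA per cell cannot be told apart, and the part of glial content in the sterol gene values was not tested.

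**Figure D4:**
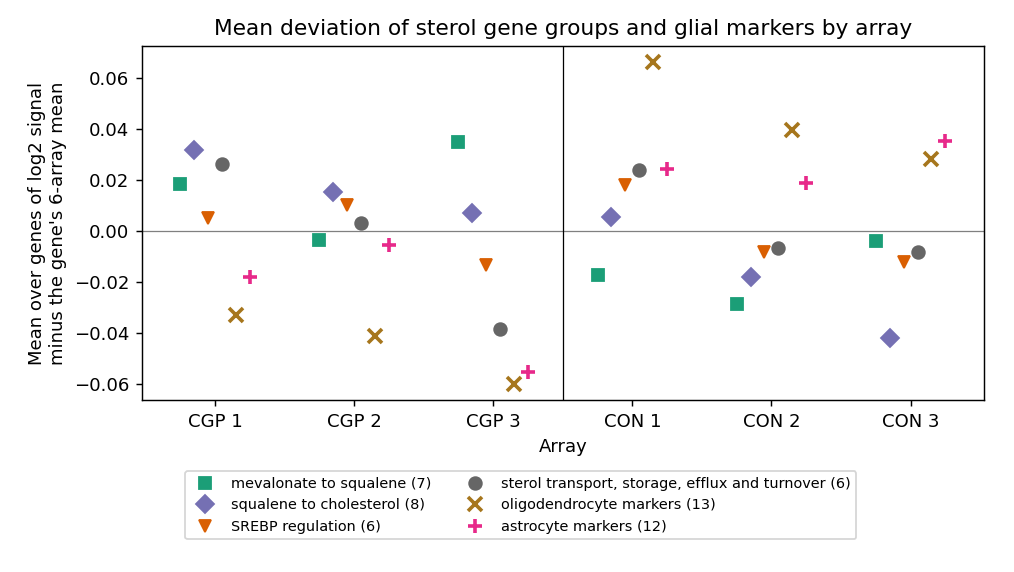
Mean deviation of the sterol gene roles and of glial markers on each array. The horizontal axis lists the 3 CGP and the 3 CON arrays, the vertical axis is the mean over the genes of a list of the log2 signal minus the gene's 6-array mean, symbols are the lists, and numbers in the legend are genes tested. The later synthesis genes lie at 0.0319, 0.0153 and 0.00699 in CGP and at 0.00559, -0.0179 and -0.0418 in CON, while the oligodendrocyte markers lie below 0 on every CGP array and above 0 on every CON array.

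The wider sterol network was read from lists of 86 other genes, of which 75 were measured, and none passed the adjusted p in either direction. Their median difference was -0.01, and 27 lay above 0 and 48 below. At an unadjusted p under 0.05, 2 were higher and 6 lower in CGP, beside 10.8% of all genes tested in either direction, so that 8 of 75 is near the share of all genes.

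The other synthesis genes, 9 measured, all lay below 0, though by little, with a median of -0.02 and a range of -0.07 to -0.0011. With the smallest p-values among them, Acat1, the mitochondrial thiolase, differed by -0.07 and Ggps1, which makes geranylgeranyl diphosphate, by -0.05 (adjusted p = 0.629 and 0.640 from limma). Among 8 genes of SREBP cleavage and protein turnover, Syvn1, a ubiquitin ligase of the endoplasmic reticulum, had signals of 9.95, 10.04 and 9.96 in CGP, against 9.86, 9.85 and 9.92 in CON. Its groups lay apart, and the difference was 0.11 (standard error 0.04, adjusted p = 0.418 from limma), while Erlin2 differed by -0.05 (adjusted p = 0.681 from limma).

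The 9 lipoprotein receptor and uptake genes had a median difference of -0.01, and the largest either way were 0.05 and -0.05. Sorl1, a sorting receptor, and Stab1, a scavenger receptor, had the smallest p-values of these (adjusted p = 0.667 and 0.672 from limma). Of 15 genes of apolipoproteins, efflux and LXR, Apod, a lipid carrier of glia, had signals of 13.29, 13.25 and 13.25 in CGP, against 13.41, 13.38 and 13.37 in CON. All CGP arrays lay below all CON arrays, and the difference was -0.12 (standard error 0.03, unadjusted p = 0.00780 and adjusted p = 0.292 from limma). Apoe, the main apolipoprotein of the brain, averaged 13.20 in CGP and 13.22 in CON, a difference of -0.02 (95% interval -0.11 to 0.06, adjusted p = 0.853 from limma), and the RXR gene Rxrb differed by 0.06 (adjusted p = 0.722 from limma).

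Genes of intracellular sterol transport, esters and oxysterols, 19 measured, held 5 of the 8 genes with an unadjusted p under 0.05. These were 4 lower and 1 higher in CGP, beside 5.58% and 5.26% of all genes tested. All CGP arrays lay below all CON arrays for 6 of the 19 and above for 1, beside 9.63% and 7.69% of all genes. Osbpl9, an oxysterol-binding protein relative, had signals of 10.16, 10.14 and 10.15 in CGP, against 10.36, 10.25 and 10.26 in CON, and Cyp27a1, a mitochondrial sterol hydroxylase, had 8.51, 8.53 and 8.43 in CGP, against 8.63, 8.62 and 8.59 in CON. In both, all CGP arrays lay below all CON arrays. Their differences were -0.14 and -0.13 (standard error 0.04 each, adjusted p = 0.294 and 0.340 from limma). The other 3 with an unadjusted p under 0.05, named after their values were seen, were the lysosomal lipase gene Lipa (-0.15), the oxysterol gene Ch25h (-0.15) and Star (0.12). Ch25h and Star had signals under 7 on all 6 arrays, close to the filter of 6.

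**Figure D5:**
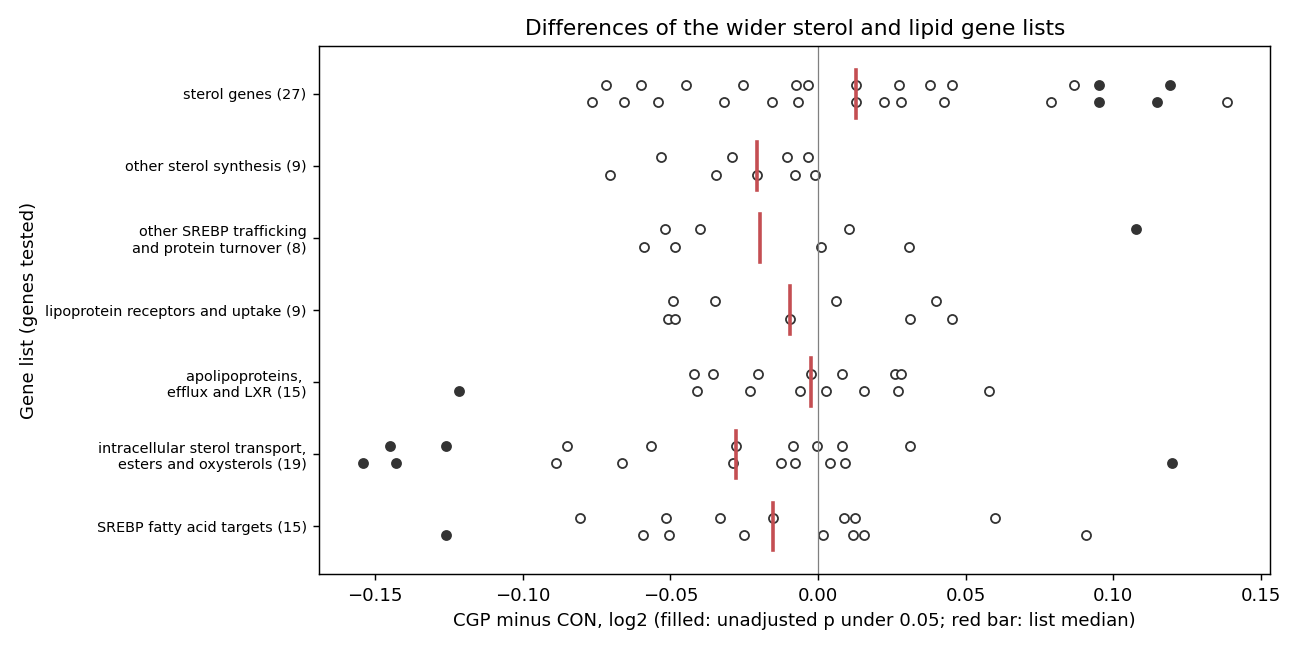
Differences of the 27 sterol genes and of the 75 other genes measured, by list. The horizontal axis is CGP minus CON on the log2 scale, each circle is a gene, filled circles have an unadjusted p under 0.05 in limma, red bars are list medians and numbers are genes measured. The 9 other synthesis genes all lie below 0, and the filled circles lie between -0.15 and 0.12, none past the adjusted p.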

How the data were processed

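Hypothalamic RNA of 2 groups (CGP and CON, 3 arrays each) was hybridised to Affymetrix Mouse Gene 1.0 ST arrays. The authors deposited log2 values made by RMA (background correction, quantile normalization and median polish) in Partek software, and they were used unaltered. RMA and quantile normalization draw the arrays to a common distribution and can compress small differences. Of 28471 probesets, 18690 had 1 gene in the GEO platform annotation, and 18620 of their identifiers matched RefSeq (GRCm38.p6). As in the study's methods, probesets with a single gene and a mean log2 signal of at least 6 were kept (18239, for 16663 genes). The groups were compared, CGP minus CON, by lmFit and eBayes of limma 3.58.1 in R 4.3.3 without covariates, with Benjamini-Hochberg adjustment over the 18239 probesets. No value counts as a rise or fall unless its adjusted p was under 0.05. Steps were tested on simulated data. No pair of arrays held the same values, and no slide or scan date was at hand, so batches were not tested. All 29 sterol genes are named, and of the other pathway lists genes past the adjusted p, otherwise the 2 smallest p-values a list, and Apoe. Markers are named only where a result turns on them, and genes outside the rule are said to be so. The members and lists were chosen with earlier results of these data known. Alternatives were the signal filter, probesets, centring, variance model, array weights, replicate block and single arrays left out. Probes of related genes can cross-hybridise.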

Additional observations from a re-analysis of the deposited data

How the results depend on the processing

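No sterol gene passed the adjusted p of 0.05 under any of the 15 refits, where the lowest value was 0.183 (Dhcr7, eBayes with trend and robust), and 22 of the 27 genes kept their sign throughout. The sign of the other 5, all within 0.013 of 0, depended on the setting. With arrays centred on the median, Fdft1 was at 0.00487, Cyp51 at 0.00545 and Nsdhl at 0.00888. With array weights Mvk was at -0.000529, Fdft1 at 0.00779 and Cyp51 at 0.0142, and with the mean of a gene's probesets Fdft1 was at 0.00918. Leaving out 1 array gave -0.0113 to 0.0268 for Mvk, -0.0599 to 0.0283 for Fdft1, -0.0533 to 0.0446 for Cyp51, -0.0242 to 0.0311 for Nsdhl and -0.00353 to 0.0310 for Insig1. The median of the 27 genes then lay between 0.0134 and 0.0311. The count of genes with all CGP arrays below all CON arrays was 0 with centring and 3 to 6 with 1 array left out, where fewer arrays make a gap more frequent.

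Over all genes, the counts higher and lower in CGP, 24 and 23 by the test used, were 2 and 1 with all probesets in the adjustment, 99 and 121 with trend and robust, 4 and 2 with the unmoderated linear model, and 3 and 6 with a 1.4-fold threshold. They were 36 and 37 with a signal filter of 7 and 31 and 38 with array weights. With 1 array left out they were 2 to 4 and 3 to 8. The replicate block gave 2 and 4. Arrays with the same replicate number did not deviate together (correlations of 0.078, -0.18 and 0.11, and CGP replicate 1 went best with CON replicate 2), so the numbers were not taken as pairs. A fold threshold has no bearing on medians or overlaps and was not run for them. The cause of these shifts was not tested.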

Other observations

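The fatty acid genes that share SREBP control with the sterol pathway gave 15 measured genes, with a median difference of -0.02 and none past the adjusted p. Acaca, the acetyl-CoA carboxylase, had signals of 9.66, 9.62 and 9.55 in CGP, against 9.74, 9.76 and 9.71 in CON. All CGP arrays lay below all CON arrays, with a difference of -0.13 (standard error 0.04, unadjusted p = 0.0143 and adjusted p = 0.344 from limma). Aacs, which feeds acetoacetate into lipid synthesis, lay the other way at 0.09 (adjusted p = 0.477 from limma). Of the 15 genes, 7 lay above 0 and 8 below.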
